A study of Rattus norvegicus with 36 samples.

Results

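The glucocorticoid receptor (GR) is a transcription factor that is held in the cytoplasm until a glucocorticoid hormone binds it, after which it enters the nucleus and attaches to DNA, directly at its response elements or through other DNA-bound factors. Corticosterone is the main glucocorticoid of rats. The hippocampus, a brain structure needed for forming memories of places and events, carries both GR and the related mineralocorticoid receptor. CREB is a transcription factor of neurons that is switched on when kinases phosphorylate it, and its phosphorylated form (pCREB) marks sites that respond to neuronal activity. The study asked where GR and pCREB sit on the genome of the hippocampus when glucocorticoids act around memory training.

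The comparison described here sets the 4 GR ChIP-seq libraries of trained rats given corticosterone against the 4 GR libraries of untrained rats given vehicle. It joins the effects of the hormone and of training in 1 contrast. It covers all 5307 GR regions of the 20029 regions listed for both antibodies, and 8 of the 36 samples of the series. The regions were not chosen by their difference between these groups, but the peak calls of these same libraries took part in listing them.

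All animals were male Sprague-Dawley rats, an outbred strain, and the tissue was snap-frozen hippocampus. The trained corticosterone group had training and the hormone, and the untrained vehicle group had neither. The other conditions, trained rats given vehicle and untrained rats given corticosterone, also have 4 GR libraries each and entered the same model. A library held the pooled chromatin of 4 hippocampi of 2 rats, which was divided between the GR antibody H-300 and an antibody against pCREB, so that the same pools were also measured for pCREB. Letters A to D tell the libraries of each condition apart. The labels give the trained corticosterone libraries lane 8 and the untrained vehicle libraries lane 5, so that lane and condition cannot be told apart. Untrained corticosterone libraries had lane 6 and trained vehicle libraries lane 7, so the same holds for every comparison of conditions below. The sources used here do not give the training task, the hormone dose or the time of sampling. In bulk chromatin, GR bound in fewer cells and less GR bound per cell cannot be told apart.

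The libraries of both groups differed in depth and in the number of peak calls. GR libraries of trained corticosterone rats held 117868 to 173176 reads in the listed regions (mean 143610 ± 23511, SD, n = 4), against 55254 to 118842 in untrained vehicle rats (mean 91478 ± 29600, SD, n = 4). As a ratio of geometric means the difference was 1.62-fold, with an exact two-sided permutation p of 0.0571. A peak had been called in 3437, 4849, 3659 and 4657 of the regions in trained corticosterone libraries A to D, against 196, 666, 3128 and 2249 in untrained vehicle libraries A to D. The groups did not overlap, with means of 4150 ± 706 regions in trained corticosterone rats and 1560 ± 1365 in untrained vehicle rats (SD, n = 4 each). The ratio of geometric means was 4.19 (exact two-sided permutation p = 0.0286, the smallest that 4 against 4 libraries can give). On the log2 scale this is a difference of 2.07, which was 1.29 without untrained vehicle A and 2.63 without untrained vehicle C. The same calls took part in listing the regions, so this difference and its p are not independent of the listing. Untrained vehicle A and B stood apart from C and D by their low numbers of calls, and B was also the shallowest GR library, with a median of 5 reads per region. A single read was worth 5.42 to 8.32 CPM in trained corticosterone libraries and 7.95 to 23.7 CPM in untrained vehicle libraries, where CPM is a library's count scaled to its reads in the tested regions with TMM factors, the usual counts-per-million unit. The 3 mitochondrial regions took 7.66% to 17.3% of the reads in trained corticosterone libraries and 11.1% to 13.4% in untrained vehicle libraries.

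**Figure D1:**
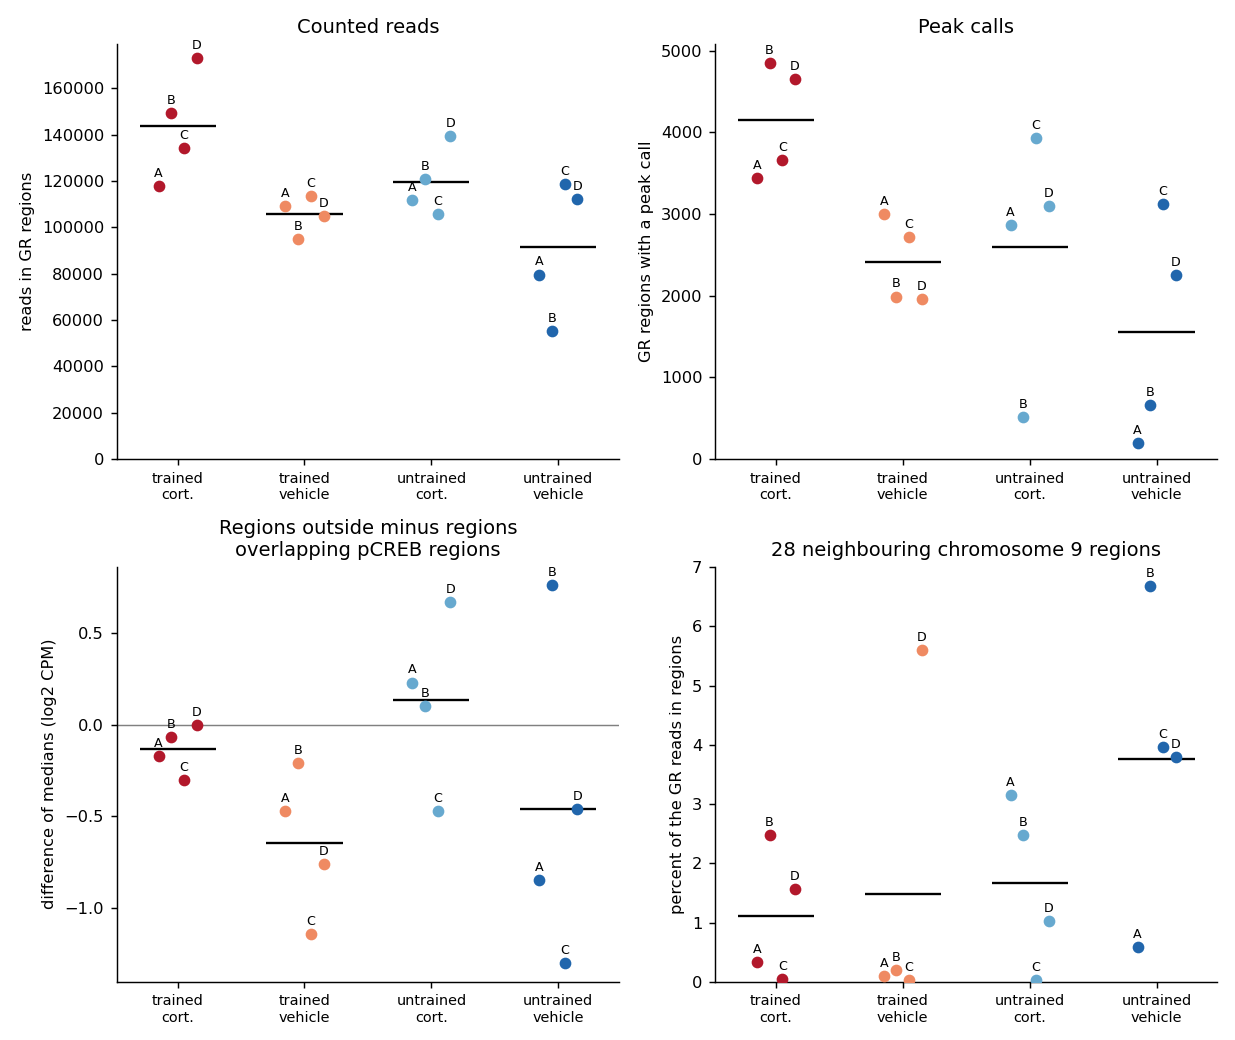
Each point is 1 GR library (letters A to D) and each bar the mean of the 4 libraries of a condition. The panels show the reads in GR regions, the number of GR regions with a peak call, the median log2 CPM of regions outside pCREB regions minus that of regions overlapping them, and the percentage of GR reads in 28 neighbouring regions of chromosome 9. Trained corticosterone libraries had 3437 or more regions with a call and every untrained vehicle library had 3128 or fewer, while the values of the 2 lower panels overlapped between these groups.

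The peak calls of both groups covered the list unequally. In trained corticosterone rats, 4500 of the 5307 regions (84.8%) had a call in 3 or 4 libraries and 63 had none. In untrained vehicle rats, 321 regions (6.05%) had a call in 3 or 4 libraries and 1326 had none. The regions with 3 or 4 calls in both groups numbered 281. A call in 3 or 4 trained corticosterone libraries with none in untrained vehicle libraries was seen at 1075 regions (20.3%), and the reverse pattern at 1 region. The calls were made by the authors within each library. They also took part in listing the regions, so the uneven split between the groups is partly set by the listing. The depth gap given above stands beside these numbers. The part of either in them was not tested.

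GR signal rose in trained corticosterone rats at 7 regions and fell at none. Of the 5307 regions, 4968 had enough reads to be tested and 339 did not. By edgeR's quasi-likelihood test over all tested regions, at a Benjamini-Hochberg adjusted p under 0.05, the 7 higher regions are 0.141% of those tested and the regions called lower are 0%. At an unadjusted p under 0.05 there were 258 regions (5.19%), 156 of them higher and 102 lower in trained corticosterone libraries. DESeq2 called 10 regions, all higher (0.201%), which included all 7. The CPM of the 4 trained corticosterone libraries all lay above those of the 4 untrained vehicle libraries at 94 regions (1.89%) and all below them at 62 regions (1.25%). The median log2 fold change over all tested regions was -0.04.

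The number of called regions depended on single libraries. It was 0 without untrained vehicle A, 18 without B, 2 without C and 3 without D, and it was 1 without trained corticosterone C and 0 without any other trained corticosterone library. The 18 calls without untrained vehicle B were all higher in trained corticosterone rats and included the 7, while the 1 call without trained corticosterone C was not among them. Without both untrained vehicle libraries of few peak calls, A and B, 4 regions were called and 1 of the 7 was among them. Over 28 alternatives, 124 of the 196 fold changes at the 7 regions passed the threshold; all were positive, a direction that the lack of overlap between the groups largely fixes.

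**Figure D2:**
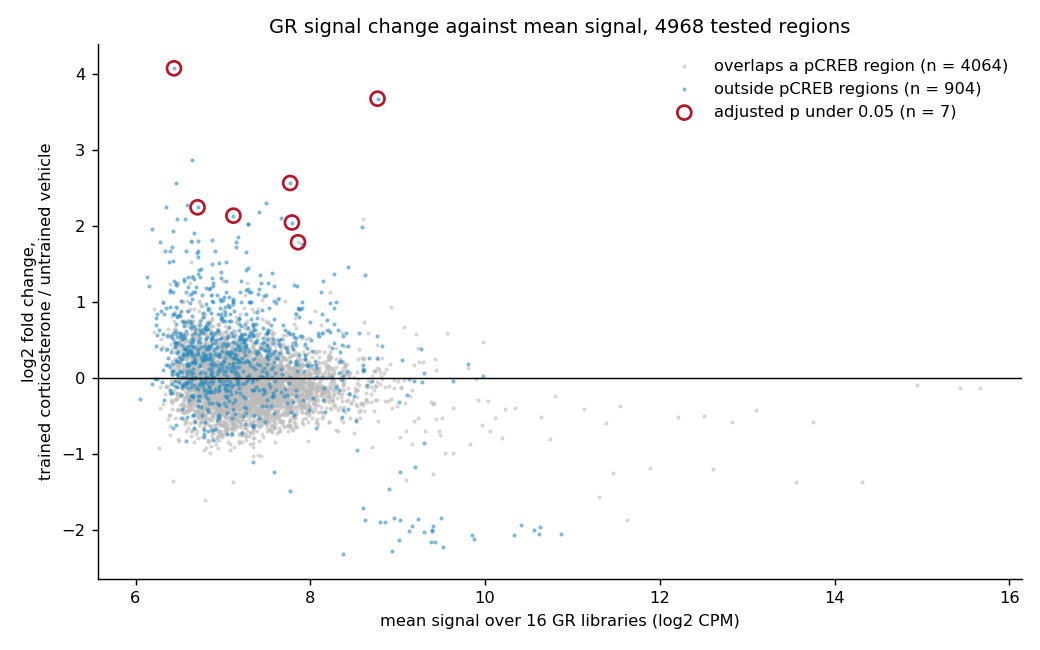
Each point is 1 of the 4968 tested GR regions, with its mean log2 CPM over the 16 GR libraries on the x axis and its log2 fold change, trained corticosterone over untrained vehicle, on the y axis. The 7 circled regions, which passed the test, have log2 fold changes of 1.79 to 4.08. The group of points near -2 at mean signals above 8 is mostly a set of neighbouring regions on chromosome 9.

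Positions are those of rat genome build rn6 as deposited. The files do not pair regions with genes, and no annotation of that build was used here, so regions are named by position alone. The best separated region was chr10:59884799-59885334, 536 bp wide. Its GR signal was 624, 710, 775 and 575 CPM in trained corticosterone libraries A to D, against 12.2, 71.2, 0 and 135 CPM in untrained vehicle libraries A to D. Every trained corticosterone library was thus far above the highest untrained vehicle library. This is a 12.8-fold difference, with a log2 fold change of 3.68 ± 0.61 (SE) and an adjusted p of 0.0251 by edgeR. Single libraries moved its size: it was 5.18 on the log2 scale without untrained vehicle D and 3.17 without untrained vehicle C. The region did not pass the test when the model held the 8 compared libraries alone. The libraries held 397 reads in trained corticosterone rats and 17 in untrained vehicle rats, and a peak was called in 4 libraries of trained corticosterone rats and in 1 of untrained vehicle rats.

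At chr15:37409719-37409969, the narrowest of the 7 with 251 bp, 3 untrained vehicle libraries held no read. The signal was 125, 113, 135 and 86.8 CPM in trained corticosterone libraries, against 0, 0, 15.9 and 0 CPM in untrained vehicle libraries, and the groups did not overlap. The fitted log2 fold change was 4.08 (SE 0.76, edgeR adjusted p = 0.0251), a value that depends on the prior count and was 6.72 without untrained vehicle C, when no untrained vehicle read remained. The reads themselves, 67 in trained corticosterone rats and 2 in untrained vehicle rats, gave a depth-scaled ratio of 19.4 with an exact 95% interval of 5.18 to 164. Such intervals cover counting error only. Its mean level lay below the median of the tested regions, as did those of the chromosome 8 region and the chr15:43782823 region described below. These 3 regions therefore fell outside the naming rule and are named because they passed the test.

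A region of 368 bp at chr17:5971448-5971815 had 233, 325, 313 and 309 CPM in trained corticosterone libraries, against 24.4, 23.7, 31.8 and 104 CPM in untrained vehicle libraries. Untrained vehicle D was the highest of its group and still well under the lowest trained corticosterone library. The log2 fold change was 2.57 (SE 0.49, edgeR adjusted p = 0.0274), and 3.40 without untrained vehicle D. The region chr8:72428219-72428545 had 150, 159, 142 and 119 CPM in trained corticosterone libraries, against 12.2, 47.5, 31.8 and 31.3 CPM in untrained vehicle libraries. The change was 2.25 ± 0.44 on the log2 scale (SE, edgeR adjusted p = 0.0274), and it rested on 84 reads in trained corticosterone libraries and 10 in untrained vehicle libraries, among the lowest read numbers of the 7.

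The second called region of chromosome 15, chr15:43782823-43783162, had 141, 166, 185 and 190 CPM in trained corticosterone libraries, against 48.8, 47.5, 23.8 and 41.7 CPM in untrained vehicle libraries. Both groups were compact there, with an SD of 21.9 CPM in trained corticosterone libraries and 11.5 CPM in untrained vehicle libraries, and the log2 fold change was 2.14 (SE 0.43, edgeR adjusted p = 0.0274). The second region of chromosome 10, chr10:16942351-16942910, had 283, 285, 306 and 211 CPM in trained corticosterone libraries, against 36.6, 71.2, 31.8 and 125 CPM in untrained vehicle libraries. The groups did not overlap, and the difference was 2.05 ± 0.40 on the log2 scale (SE, edgeR adjusted p = 0.0274). Without untrained vehicle D it was 2.73, and without untrained vehicle C it was 1.75 with an edgeR adjusted p of 0.267.

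The smallest change among the 7 was at chr11:31424285-31424773, with 233, 358, 320 and 309 CPM in trained corticosterone libraries, against 122, 166, 47.7 and 62.5 CPM in untrained vehicle libraries. The log2 fold change was 1.79 (SE 0.34, edgeR adjusted p = 0.0251). It had the highest untrained vehicle level per length of the 7, 204 CPM per kb, where the others had 15.8 to 125 CPM per kb in untrained vehicle rats. It was also the only one of the 7 that overlapped a pCREB region. The other 6 lay 12278 bp (the chromosome 17 region) to 252773 bp (chr15:37409719-37409969) from the nearest pCREB region. All 7 had a peak call in the 4 trained corticosterone libraries, and 6 of the 7 had none in untrained vehicle libraries. Of the 4968 tested regions, 1824 had a call in the 4 trained corticosterone libraries and 1086 had none in untrained vehicle libraries. Calls and counts come from the same reads, so the calls at the 7 regions are no separate evidence.

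**Figure D3:**
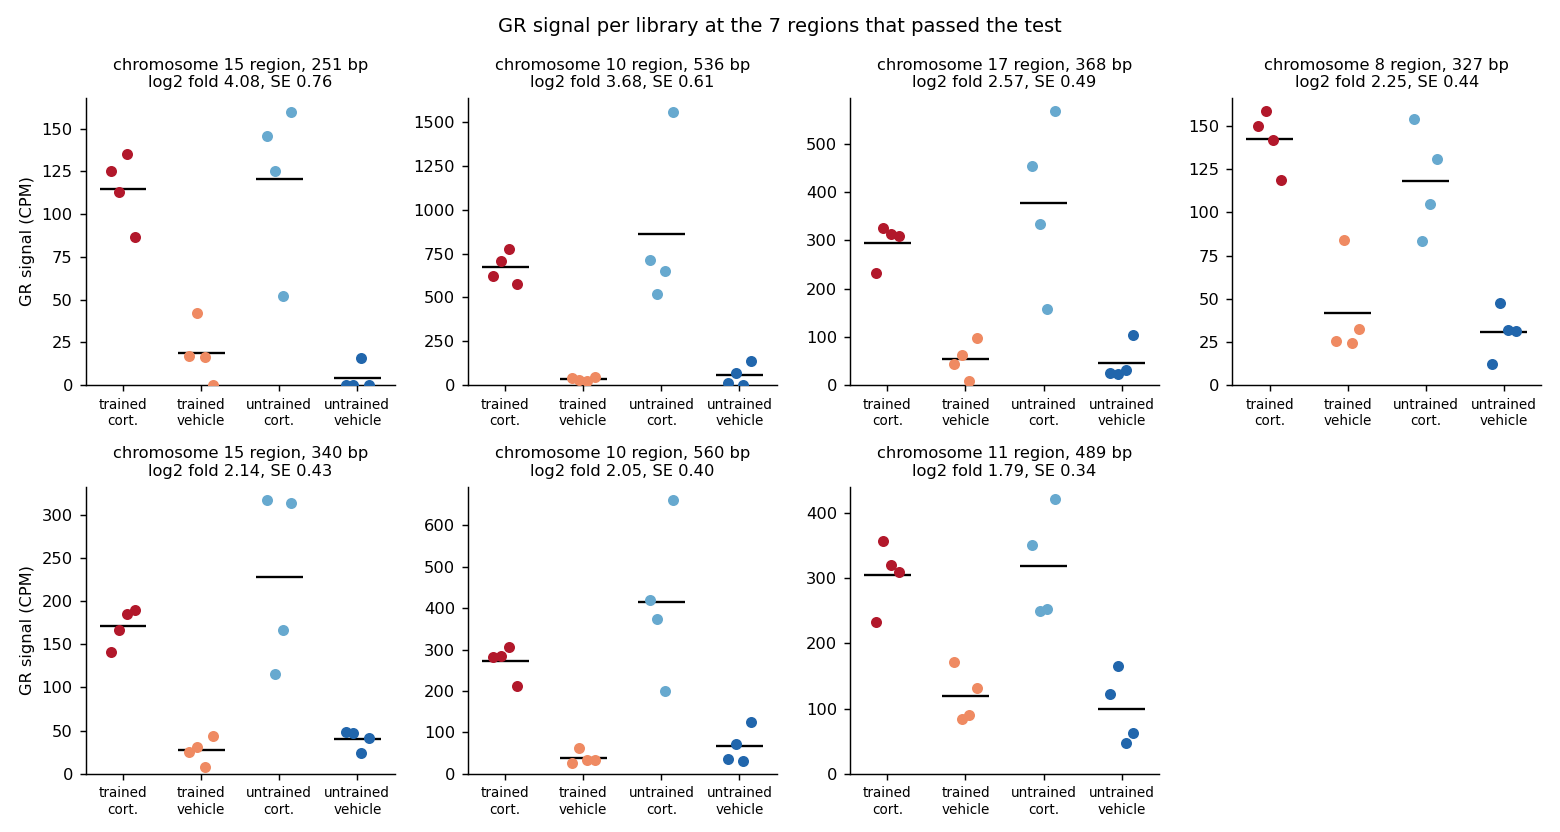
GR signal in CPM at the 7 regions that passed the test, 1 panel per region in the order of the fold change, with 1 point for each library and a bar for the mean of 4. In every panel the 4 trained corticosterone points lie above the 4 untrained vehicle points. The means of untrained corticosterone rats lie closer to those of trained corticosterone rats than the means of trained vehicle rats do, while single untrained corticosterone points spread widely, such as 52.3 CPM at chr15:37409719-37409969 and 1560 CPM at chr10:59884799-59885334.

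The other conditions divide the combined contrast into a corticosterone step and a training step. These comparisons share libraries with the combined one and with each other, so their values are set side by side only. At chr10:59884799-59885334 the mean signal was 671 ± 89.0 CPM in trained corticosterone rats, 35.6 ± 9.24 CPM in trained vehicle rats, 860 ± 471 CPM in untrained corticosterone rats and 54.7 ± 62.2 CPM in untrained vehicle rats (SD, n = 4 each). The 2 corticosterone groups were high and the 2 vehicle groups low. At chr11:31424285-31424773 the means were 305 ± 52.4 CPM in trained corticosterone, 119 ± 40.7 in trained vehicle, 319 ± 83.2 in untrained corticosterone and 99.6 ± 54.8 in untrained vehicle rats, with the same division. At chr15:37409719-37409969 they were 115 ± 20.8 CPM in trained corticosterone, 18.9 ± 17.3 in trained vehicle, 121 ± 47.8 in untrained corticosterone and 3.97 ± 7.95 in untrained vehicle rats.

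Corticosterone against vehicle in untrained rats was called at 15 of the 4968 regions by edgeR (0.302%) and at 24 by DESeq2. Of the 7 regions, 6 were among the edgeR calls, with log2 fold changes over the 7 of 1.86 to 4.17 (median 2.68). The seventh, chr8:72428219-72428545, had a log2 fold change of 2.00 there (SE 0.46, edgeR adjusted p = 0.0526). Corticosterone against vehicle in trained rats was called at 6 regions by edgeR (0.121%), of which 4 were among the 7, and at 22 regions by DESeq2. The fold changes over the 7 ran from 1.35 to 4.20 on the log2 scale (median 2.53). Both hormone comparisons were positive at all 7 regions. Each shares a group with the combined contrast by which these regions were chosen, so this direction is partly built in.

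Training against no training was called nowhere. Under corticosterone edgeR called 0 of 4968 regions (0%), DESeq2 called 0, and 184 regions had an unadjusted p under 0.05. The log2 fold changes of this step at the 7 regions ran from -0.63 to 0.25 (median -0.36) and were positive at 1 region, chr8:72428219-72428545. The lowest, -0.63 (SE 0.30) at chr10:16942351-16942910, had an unadjusted p of 0.0489 and an adjusted p of 0.966 by edgeR. In vehicle rats the training step gave 0 calls by both tools and 152 regions at an unadjusted p under 0.05, with log2 fold changes at the 7 regions of -0.75 to 1.55 (median 0.04). The difference between both hormone comparisons, tested as an interaction, also gave 0 calls by both tools and 184 regions at an unadjusted p under 0.05. Its values at the 7 regions were -1.64 to 0.17 on the log2 scale, with SEs of 0.46 to 1.13. The lowest, -1.64 at chr15:37409719-37409969, had the SE of 1.13 (edgeR unadjusted p = 0.157).

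**Figure D4:**
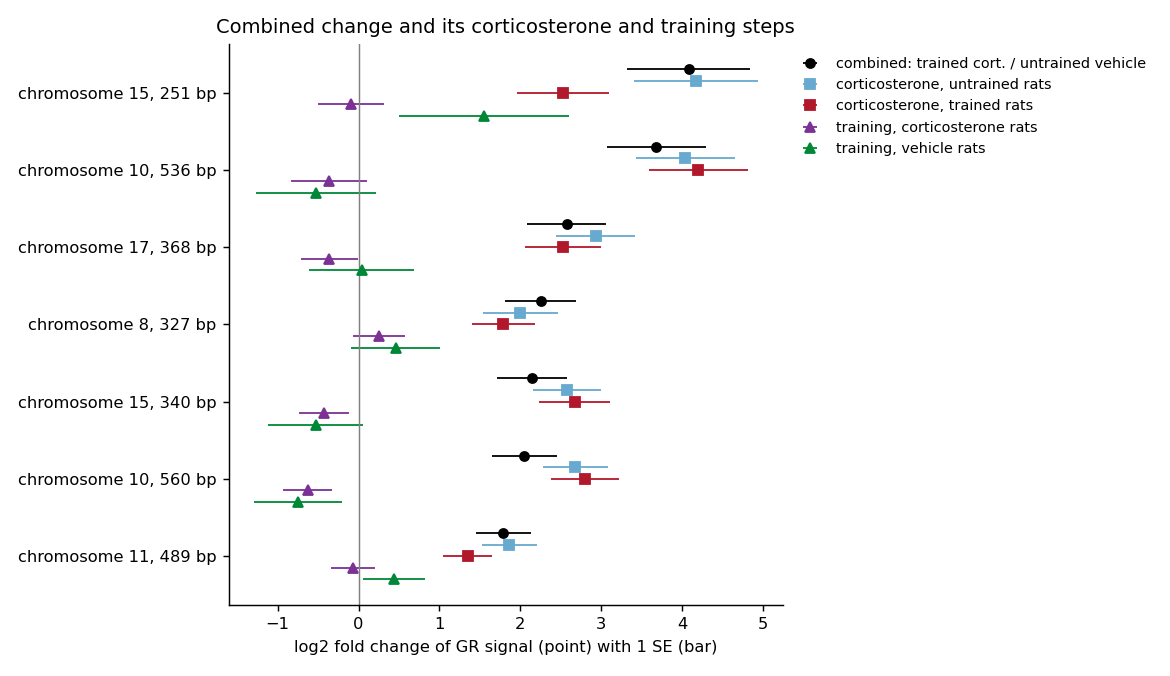
Log2 fold changes of GR signal with 1 SE at the 7 called regions, for the combined contrast and the corticosterone and training steps that share its libraries. The combined and both corticosterone values lie between 1.35 and 4.20, while the training values lie between -0.75 and 1.55.

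Regions just outside the threshold also had higher signal in trained corticosterone libraries. The next 2 by p were chr17:40485671-40486256 and chr16:48053796-48054088, both with an edgeR adjusted p of 0.0683. The signal at chr17:40485671-40486256 was 208, 292, 220 and 336 CPM in trained corticosterone libraries, against 60.9, 166, 23.8 and 52.1 CPM in untrained vehicle libraries (log2 fold change 2.11, SE 0.46). At chr16:48053796-48054088 it was 391, 345, 128 and 396 CPM in trained corticosterone libraries, against 97.5, 119, 63.6 and 104 CPM in untrained vehicle libraries, with trained corticosterone C close to the untrained vehicle values (log2 fold change 1.77, SE 0.39). DESeq2 called chr17:40485671-40486256 and 2 other regions that edgeR did not. Of these, chr15:58884552-58885070 had 449, 637, 590 and 515 CPM in trained corticosterone libraries, against 122, 142, 71.5 and 188 CPM in untrained vehicle libraries (DESeq2 adjusted p = 0.041, edgeR adjusted p = 0.129). The last, chr1:73760445-73760846, averaged 239 ± 97.3 CPM in trained corticosterone libraries and 56.3 ± 46.4 CPM in untrained vehicle libraries (SD, n = 4 each, DESeq2 adjusted p = 0.0467, edgeR adjusted p = 0.129).

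A region among the 20 with the smallest p had its levels divided by training and not by the hormone, and it is named after its values were seen. At chrX:47422884-47423119 the signal was 99.9, 113, 114 and 125 CPM in trained corticosterone libraries and 85.8, 136, 81.8 and 229 CPM in trained vehicle libraries. It was 51.4, 31.2, 34.8 and 65.4 CPM in untrained corticosterone libraries and 48.8, 23.7, 23.8 and 31.3 CPM in untrained vehicle libraries. Both trained groups thus lay above both untrained groups in every library. The counts were low, with 1 to 4 reads in untrained vehicle libraries and 3 to 9 in untrained corticosterone libraries. Trained vehicle libraries held 10 to 21 reads and trained corticosterone libraries 12 to 23. The combined log2 fold change was 1.79 (SE 0.46, edgeR adjusted p = 0.195), which did not pass. The training step was 1.26 under corticosterone (SE 0.39) and 1.99 in vehicle rats (SE 0.46), with edgeR adjusted p-values of 0.966 and 0.998. The pCREB region that overlaps it, chrX:47422871-47423131, averaged 50.2 ± 15.4 CPM in trained corticosterone pools and 25.7 ± 9.12 CPM in untrained vehicle pools (SD, n = 4 each), a log2 fold change of 0.90 with an unadjusted p of 0.0208 and an adjusted p of 1 by edgeR. The peak calls there gave 3 of 4 libraries in trained corticosterone rats and 0 of 4 in untrained vehicle rats.

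Several pairs of neighbouring regions within 100 kb of each other both had an unadjusted p under 0.05 and higher signal in trained corticosterone rats, although none passed the adjusted test. On chromosome 20, chr20:7998838-7999373 had 624, 597, 427 and 591 CPM in trained corticosterone libraries, against 12.2, 404, 63.6 and 167 CPM in untrained vehicle libraries. The groups did not overlap, but untrained vehicle B lay close to the lowest trained corticosterone library. The log2 fold change was 1.99 (SE 0.59, edgeR adjusted p = 0.59), and without untrained vehicle B it was 2.79 with an adjusted p of 0.0291. That was the only 1 of 16 fits with 1 library left out in which this region passed. Over all alternatives its log2 fold change went down to 1.60. Its neighbour chr20:8091823-8092175 averaged 89.2 ± 17.4 CPM in trained corticosterone libraries and 22.7 ± 20.9 CPM in untrained vehicle libraries (SD, n = 4 each). On chromosome 17, chr17:46727874-46728139 and chr17:46747792-46748078, 19652 bp apart, had log2 fold changes of 2.87 (SE 0.68) and 2.1 (SE 0.65). On chromosome 13, chr13:71575065-71575656 and chr13:71606937-71607641 had log2 fold changes of 1.04 (SE 0.30) and 1.46 (SE 0.46), and the region between them one of 0.48. Pairs on chromosomes 8 and X had log2 fold changes of 0.74 to 1.54. These pairs were picked out by their values, so their shared direction follows from the choice.

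The regions with lower signal in trained corticosterone rats did not pass the test. The 3 with the smallest p all overlapped a pCREB region, as did 4064 of the 4968 tested regions. At chr17:76315138-76315504 the signal was 83.2, 33.2, 42.7 and 38.0 CPM in trained corticosterone libraries, against 97.5, 142, 143 and 198 CPM in untrained vehicle libraries, with no overlap between the groups (log2 fold change -1.60, SE 0.42, edgeR adjusted p = 0.235). At chr1:267559407-267559779 it was 117, 33.2, 35.5 and 81.3 CPM in trained corticosterone libraries, against 207, 95, 143 and 219 CPM in untrained vehicle libraries. These groups overlapped, and their difference was -1.37 ± 0.41 on the log2 scale (SE, edgeR adjusted p = 0.498). At chr8:119584227-119584637 it was 66.6, 113, 121 and 70.5 CPM in trained corticosterone libraries, against 256, 190, 191 and 125 CPM in untrained vehicle libraries (log2 fold change -1.02, SE 0.32, adjusted p = 0.59). In the same pools the overlapping pCREB regions had log2 fold changes of 0.16, 0.13 and -0.34, with an edgeR adjusted p of 1 each.

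The most negative fold changes of the comparison came from 1 stretch of chromosome 9. Of the 31 tested regions with a log2 fold change below -1.5, 27 lay among 28 neighbouring regions in chr9:119684816-119807130, a stretch of 122315 bp. The stretch was found as the longest run of neighbouring tested regions with log2 fold changes below -1, where the next longest run held 2 regions, so its direction is a description with no test. Its regions had log2 fold changes of -2.32 to -1.48 (SE 1.2 to 1.8) and unadjusted p-values of 0.109 to 0.28. These SEs are several times the median SE of 0.36.

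The 28 regions took 0.335%, 2.47%, 0.0432% and 1.56% of the GR reads in trained corticosterone libraries A to D, against 0.584%, 6.68%, 3.97% and 3.79% in untrained vehicle libraries A to D. They took 0.0935%, 0.193%, 0.0352% and 5.61% in trained vehicle libraries and 3.15%, 2.47%, 0.0369% and 1.03% in untrained corticosterone libraries. Every condition thus held at least 1 library far above or below its other libraries, and the highest share within trained vehicle rats was 159 times the lowest. The strongest region was chr9:119770969-119771415. It had 266, 2010, 64.0 and 1220 CPM in trained corticosterone libraries, against 524, 7360, 3200 and 3760 CPM in untrained vehicle libraries. In these groups its lowest and highest libraries were those of the whole stretch, a total that includes it. In untrained corticosterone rats B was highest at this region, with 2520 CPM against 2470 CPM in A, but A for the stretch. The lowest of the 28 regions had 272 CPM in trained corticosterone B, where the highest had 64 CPM in C. In untrained vehicle rats the lowest had 712 CPM in B and the highest 524 CPM in A. No pCREB region was listed within the stretch, although pCREB was measured in the same pools, and the nearest lay 22287 bp before it and 10891 bp after it. With the 28 regions left out of the model, 7 regions were called and the same 7 were among them. What sets the share of reads in this stretch was not tested.

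GR regions outside pCREB regions had higher fold changes than those over them. Of the 5307 listed GR regions, 4253 (80.1%) overlapped a pCREB region by 1 bp or more. Among tested regions, 6 of the 904 outside pCREB regions were called, and 1 of the 4064 overlapping them. Outside pCREB regions the median log2 fold change was 0.29 and 71.1% of the values were positive, and 110 regions (12.2%) were higher and 2 lower at an unadjusted p under 0.05. Over pCREB regions the median was -0.09 and 40.4% were positive, with 46 regions (1.13%) higher and 100 (2.46%) lower at that level. No untrained vehicle library had a peak call at 376 of the 904 regions outside pCREB regions and 710 of the 4064 over them. Such regions were listed without an untrained vehicle call, and calls come from the same reads as counts. The classes thus did not enter the list alike, and the part of this in their medians was not tested. With total count scaling in place of TMM, the median over all regions moved to 0.11, and the medians were 0.46 outside and 0.06 over pCREB regions, with 83.1% of values positive outside and 58.4% over them. The difference of both medians stayed between 0.36 and 0.40 under the 4 scalings tried, since a scaling factor moves both alike.

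That difference rested on unlike untrained vehicle libraries. Within a library, the median log2 CPM outside pCREB regions minus that over them does not depend on scaling. It was -0.17, -0.07, -0.30 and 0 in trained corticosterone libraries A to D, against -0.85, 0.76, -1.30 and -0.46 in untrained vehicle libraries A to D. The untrained vehicle values enclosed all trained corticosterone values, with B above them and the others below, and B is the shallowest library. The median log2 fold change outside pCREB regions was 0.76 without untrained vehicle B and 0.07 without untrained vehicle C. The regions outside pCREB regions were also narrower, with a median width of 323 bp against 431 bp for those over them, and had a lower median level, 7.05 against 7.25 log2 CPM.

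The fold change also followed the peak calls of the untrained vehicle libraries. Calls and counts come from the same reads, so that this relation is partly built in. The median log2 fold change was 0.26, -0.03, -0.17, -0.16 and -0.39 for tested regions with 0, 1, 2, 3 and 4 calls in untrained vehicle libraries. Among the 376 regions outside pCREB regions with no such call it was 0.56, and among the 710 over pCREB regions it was 0.15. Of the 15 regions outside pCREB regions with 4 calls, 12 belonged to the chromosome 9 stretch, and their median was -2.

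**Figure D5:**
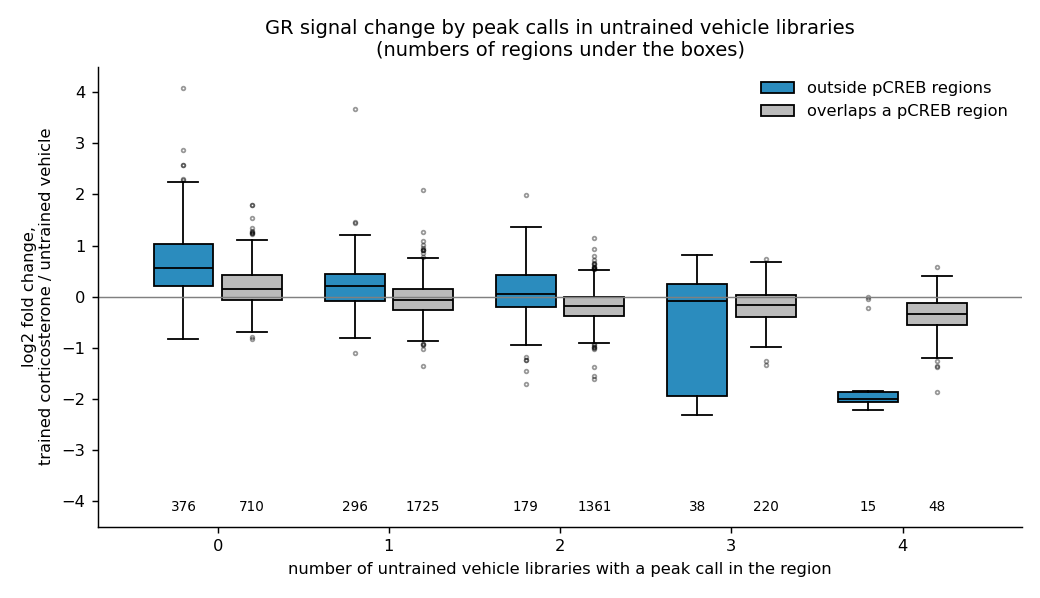
Log2 fold changes of GR signal, trained corticosterone over untrained vehicle, by the number of untrained vehicle libraries with a peak call, for regions outside (blue) and over (grey) pCREB regions. Boxes show the quartiles with the median, whiskers reach the last value within 1.5 times the box length, and the medians fall from 0.56 at 0 calls to -2 at 4 calls outside pCREB regions and from 0.15 to -0.34 over them.

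The pCREB libraries of the same pools gave no called region for this contrast. Of 14553 tested pCREB regions, edgeR and DESeq2 each called 0 (0%), and 433 (2.98%) had an unadjusted p under 0.05. At the called GR region of chromosome 11, the overlapping pCREB region chr11:31424442-31424758 averaged 37.5 ± 15.4 CPM in trained corticosterone pools and 21.5 ± 12 CPM in untrained vehicle pools (SD, n = 4 each), a log2 fold change of 0.73 (SE 0.38, unadjusted p = 0.062 and adjusted p = 1 by edgeR). The groups overlapped there, while the GR values of the same pools did not. The pCREB library of trained corticosterone A was shallow: its 5 reads there gave 39.9 CPM, where 32 reads gave 55.8 CPM in B. This limits what the pCREB comparison can detect.

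The pCREB regions with the smallest p are named as not passing. The 3 that were higher in trained corticosterone pools were chr3:147377157-147377439, chr6:111732812-111733361 and chr15:58146063-58146362, with log2 fold changes of 1.82, 1.00 and 1.35. The 3 that were lower were chr18:898266-898532, chr1:36319684-36320118 and chr9:45007197-45007497, with log2 fold changes of -1.58, -1.25 and -1.02. The clearest in level, chr6:111732812-111733361, averaged 71.7 ± 12.2 CPM in trained corticosterone pools and 35.8 ± 8.44 CPM in untrained vehicle pools (SD, n = 4 each), with an unadjusted p of 0.000674 and an adjusted p of 1 by edgeR.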

How the data were processed

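The deposited values are raw counts of reads, 1 row per region and 1 column per library, which the authors had not normalized per the values themselves; a column holds the GR library beside GR regions and the pCREB library beside pCREB regions. The submitters' processing notes name build rn6 and the tools BWA (0.7.10), bedtools (2.26.0), HTSeq (0.6.1-1) and MACS2 (2.1.1.20160309). Their parameters, and whether starts count from 0 or 1, were not given in these sources. All 16 GR libraries entered 1 edgeR model (4.0.16, R 4.3.3; quasi-likelihood, robust, TMM, filterByExpr) of 4 conditions with no covariate, and pCREB libraries another. DESeq2 1.42.0 was an alternative. The SE is the absolute log2 fold change divided by the square root of F. Library totals were compared by exact permutation (scipy 1.17.1) and overlaps with GenomicRanges 1.54.1. The model was also run on counts simulated from its own fitted spread, which cannot show how it handles unlike libraries within a group. Replicates are separate pools of rats. Among GR library pairs within trained corticosterone or within untrained vehicle, none was a duplicate (lowest chi-square per degree of freedom 1.79). Other pairs were not checked.

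Up to 12 regions per direction were named that passed the test without overlap of the groups and whose level, in mean log2 CPM, exceeded 7.21, the median over tested regions. This gave 4 rises. With fewer than 3, the smallest p-values decided and the regions are given as not passing. Other regions were named after their values were seen. Members and lists were chosen with earlier results of these data known. Gene loci, motifs, sequences and inputs were not analysed here.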

Additional observations from a re-analysis of the deposited data

Results flagged for a closer look

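Over 36 groups of 4 libraries, taken for 4 library measures and for the regions that passed either tool, the next by p and the 3 lower regions, 2 held a library separated from its group by a gap larger than Dixon's 95% critical value. Chance alone gives about 1 in 20 such groups. At chr17:5971448-5971815, untrained vehicle D had 104 CPM, where the other untrained vehicle libraries had 24.4, 23.7 and 31.8 CPM. At chr15:37409719-37409969, untrained vehicle C had 15.9 CPM, which is 2 reads, where the other untrained vehicle libraries held no read. Both libraries lie nearer to the trained corticosterone values than the rest of their group.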

How the results depend on the processing

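Called GR regions numbered 7, and 12 with total count scaling, 4 with TMM factors from regions that overlap pCREB regions, 0 at an adjusted p under 0.01, 1 without the 3 libraries of few peak calls (untrained vehicle A and B, untrained corticosterone B) and 4 without untrained vehicle A and B. With 1 library left out the count ran from 0 to 18; among the other conditions it was 12 without untrained corticosterone C and 5 to 8 without any other. It was 10 with DESeq2, 5 with the 8 compared libraries alone, and 7 with RLE factors, no filter, no mitochondrial regions or no chromosome 9 stretch. With the library letter as a replicate block it was 13 and included all 7. Between the compared groups, same-letter libraries correlated at 0.06, 0.18, 0.22 and 0.05 in their deviations, and different-letter libraries at -0.3 to 0.35. These values do not settle whether the letters mark a pairing. Under total count scaling the median over pCREB regions was 0.06. The log2 difference in regions with a peak call ran from 1.29 to 2.63 with 1 library left out, at the smallest p that 3 against 4 libraries allow, 0.0571. The pCREB count was 0 throughout. Leaving out libraries of the other conditions, untrained vehicle A and B together, and the chromosome 9 stretch were chosen after seeing the data. Where counts moved, the cause was not tested. Gene-locus and motif alternatives were not run, as no annotation or genome of the files' build was used. Untrained vehicle depth, where 1 read is worth up to 23.7 CPM, limits what can be seen as a fall.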
